A study of Mus musculus with 6 samples.

Results

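A list of 47 nuclear hormone receptor genes of the mouse, which does not hold every member of the family, was followed in lists of nucleosome-enriched regions from sperm. All 47 symbols were found among the 21887 protein-coding genes on chromosomes 1 to 19, X and Y of the RefSeq annotation of GRCm38.p6, the assembly that mm10 names. For each gene, peaks were sought within 1 kb of either annotated end and inside the gene body. A peak lay at a gene end if it overlapped the end's window by at least 1 bp. A body peak had its midpoint inside the gene span and touched neither window of that gene.

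Sperm came from the epididymis and vas deferens of mice with the K49A substitution in protamine 1 (2 libraries) and of C57BL6 wild-type mice (WT, 4 libraries). K49A puts alanine in place of the lysine at position 49 of protamine 1, one of the small basic proteins that package sperm DNA after most histones have been removed. In both genotypes sperm were treated with DNase I, opened with detergent, decondensed with DTT and digested with micrococcal nuclease (MNase), an enzyme that spares DNA wrapped around histones, in 2 rounds of 5 and 15 units. Mononucleosome-sized DNA was then sequenced, so that a peak marks DNA recovered at that size more often than in the library's background. The sources used here give neither the age of the mice nor the strain background and zygosity of the K49A mice, and state the sperm input per genotype without the number of animals behind a library. The libraries of a genotype are described as biological replicates. The p-values show only where the division by genotype stands among all divisions of the 6 libraries into 2 and 4. A peak list cannot show the K49A substitution itself, and sperm identity could not be checked by expressed markers in an assay of DNA.

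The K49A lists held 700 and 1017 peaks (K49A 1 and 2), and the WT lists held 11313, 20458, 22237 and 27903 (WT 1 to 4). Read depth is unknown, because the lists carry no read counts. The genotypes differ in list length beside every count below. The part of list length was not tested, except where counts with lists cut to equal length are given. The fold of a peak is the authors' enrichment over the background of its own library, so folds are set side by side between WT libraries and are not compared between genotypes.

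Nuclear receptors are transcription factors that bind DNA through zinc fingers, and many of them switch between repression and activation when a small lipophilic ligand, such as a steroid, retinoid, thyroid hormone, bile acid or oxysterol, enters their ligand-binding pocket. Many of the NR1 subfamily act as heterodimers with a retinoid X receptor, the steroid receptors of the NR3 subfamily act mainly as homodimers, and orphan receptors have no established physiological ligand. Most promoters in mammals that escape DNA methylation in the germ line are rich in CpG dinucleotides, and the nucleosomes that stay in sperm have been described mostly at such promoters.

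Promoters of 4 receptors that a peak overlapped in every WT library, and of 2 receptors without any peak, show how widely these sequences varied. Each is the RefSeq window from 250 bases before to 50 after a listed transcription start (300 bases, GRCm38.p6), printed 5′ to 3′ on the strand of the gene, with each CpG dinucleotide in capitals. Rxra (chr2:27676951-27677250, plus strand) held 55 CpG, Pparg (chr6:115360894-115361193, plus strand) held 44, Nr4a2 (chr2:57123954-57124253, minus strand) held 52, and Vdr (chr15:97908247-97908546, minus strand) held 15. Among the receptors without a peak, Nr0b2 (chr4:133553126-133553425, plus strand) held 3 and Nr1h2 (chr7:44553916-44554215, minus strand) held 19.
Rxra: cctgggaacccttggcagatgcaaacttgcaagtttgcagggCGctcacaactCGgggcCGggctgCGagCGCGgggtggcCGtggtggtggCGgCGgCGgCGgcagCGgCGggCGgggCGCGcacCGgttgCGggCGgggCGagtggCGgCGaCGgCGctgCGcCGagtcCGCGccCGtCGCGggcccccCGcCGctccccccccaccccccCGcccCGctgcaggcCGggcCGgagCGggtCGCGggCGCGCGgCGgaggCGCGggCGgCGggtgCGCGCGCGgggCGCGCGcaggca
Pparg: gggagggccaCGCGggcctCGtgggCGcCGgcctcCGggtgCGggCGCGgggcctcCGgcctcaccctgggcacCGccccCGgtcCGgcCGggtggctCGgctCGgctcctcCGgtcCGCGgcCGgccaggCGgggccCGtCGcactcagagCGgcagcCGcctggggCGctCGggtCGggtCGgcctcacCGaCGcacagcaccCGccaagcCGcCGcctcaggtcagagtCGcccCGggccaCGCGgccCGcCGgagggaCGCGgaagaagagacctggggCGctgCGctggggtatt
Nr4a2: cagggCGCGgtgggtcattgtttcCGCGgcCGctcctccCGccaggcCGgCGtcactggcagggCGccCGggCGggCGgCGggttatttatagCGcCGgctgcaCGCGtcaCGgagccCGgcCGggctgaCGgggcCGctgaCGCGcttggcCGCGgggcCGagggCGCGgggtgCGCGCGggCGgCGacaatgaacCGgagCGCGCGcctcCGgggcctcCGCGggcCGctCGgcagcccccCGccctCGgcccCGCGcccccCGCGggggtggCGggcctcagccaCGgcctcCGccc
Vdr: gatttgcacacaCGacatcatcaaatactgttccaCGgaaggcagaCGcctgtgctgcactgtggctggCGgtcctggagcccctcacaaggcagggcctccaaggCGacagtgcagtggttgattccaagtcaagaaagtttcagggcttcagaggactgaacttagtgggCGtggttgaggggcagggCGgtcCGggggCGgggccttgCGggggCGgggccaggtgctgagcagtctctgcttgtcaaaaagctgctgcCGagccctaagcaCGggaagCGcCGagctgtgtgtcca
Nr0b2: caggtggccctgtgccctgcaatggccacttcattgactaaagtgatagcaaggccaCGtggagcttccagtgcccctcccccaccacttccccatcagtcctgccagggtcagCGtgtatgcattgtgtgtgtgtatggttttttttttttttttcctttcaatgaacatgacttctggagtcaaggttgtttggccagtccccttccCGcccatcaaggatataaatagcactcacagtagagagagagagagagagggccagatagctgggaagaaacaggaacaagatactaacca
Nr1h2: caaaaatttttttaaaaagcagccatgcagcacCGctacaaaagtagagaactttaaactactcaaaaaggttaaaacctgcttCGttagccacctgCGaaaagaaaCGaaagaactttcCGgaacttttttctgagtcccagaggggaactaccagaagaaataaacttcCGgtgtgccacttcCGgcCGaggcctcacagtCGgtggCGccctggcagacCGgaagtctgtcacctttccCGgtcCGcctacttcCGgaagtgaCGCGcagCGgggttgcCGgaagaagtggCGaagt

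The first comparison asked at how many receptor genes a nucleosome-sized peak lay at a gene end in each genotype. In K49A sperm 0 of the 47 receptor genes had such a peak in either library, and in WT sperm 14, 20, 30 and 26 had one in WT 1 to 4. The mean was 0 receptor genes in K49A (n = 2) and 22.5 ± 7 in WT (SD, n = 4), a difference of -22.5 (SE 3.5), with no overlap between the genotypes. Across all protein-coding genes the share with an end peak was 0.429% and 0.334% in K49A 1 and 2 and 28.8%, 43%, 46.3% and 49.9% in WT 1 to 4, and the share of receptor genes in WT was 29.8%, 42.6%, 63.8% and 55.3%. Only 0.626% of all genes had an end peak in any K49A library, so a count of 0 among 47 receptors is near the background.

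**Figure D1:**
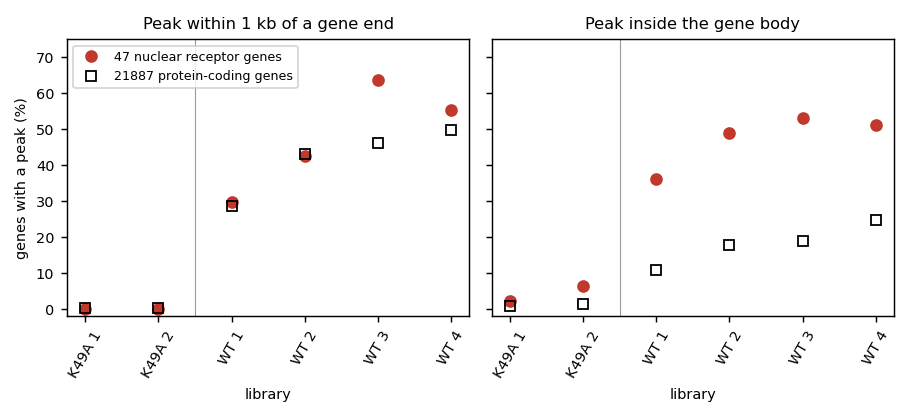
Share of genes with a peak (percent, y axis) in each of the 6 libraries (x axis, K49A left of WT), within 1 kb of a gene end (left) and inside the gene body (right); filled circles are the 47 receptor genes and open squares all 21887 protein-coding genes. At the gene ends the receptors lie at 0% in both K49A libraries and between 29.8% and 63.8% in WT, and in the gene body they lie above all genes in every library.

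A peak at a gene end in no K49A library and in all 4 WT libraries was called at 11 of 47 receptor genes (23.4%), beside 21.8% of all protein-coding genes, a share near the background. The share of all genes in this class was higher for longer genes, and in ranges of gene length the receptor counts were 2 of 13 up to 20 kb (13.6% of all genes), 3 of 12 from 20 to 50 kb (25.4%), 3 of 9 from 50 to 100 kb (35.5%), 1 of 6 from 100 to 200 kb (39.3%) and 2 of 7 above 200 kb (40%). These 11 were Nr1d2, Nr2c2, Nr2f1, Nr4a1, Nr4a2, Nr6a1, Rarg, Rxra, Rora, Vdr and Pparg. Another 10 were called in 3 WT libraries (Nr2e1, Nr2f2, Nr2f6, Esr2, Esrra, Rxrb, Rorb, Thra, Ppara and Ppard), 5 in 2 (Nr1d1, Nr1h3, Nr2c1, Esrrg and Rxrg) and 6 in 1 (Nr0b1, Nr2e3, Nr3c2, Nr4a3, Esr1 and Hnf4g). The remaining 15 had no end peak in any library: Nr0b2, Nr1h2, Nr1h4, Nr1h5, Nr1i2, Nr1i3, Nr3c1, Nr5a1, Nr5a2, Pgr, Esrrb, Rara, Rarb, Thrb and Hnf4a. The receptor shares in 3, 2, 1 and 0 WT libraries were 21.3%, 10.6%, 12.8% and 31.9%. Those of all genes were 15.3%, 11.1%, 11.3% and 40.2%. The list rests on the shortest WT list: without WT 1, the count over the other 3 WT libraries was 18. Asking for fewer libraries can only keep or raise a count, and the share of all genes without WT 1 was not analysed. In the exact permutation test of the base pairs covered at the gene ends (two-sided, over the 15 ways of dividing 6 libraries into 2 and 4), each of the 11 had p = 0.133, the smallest this design allows, and an adjusted p of 0.605 (Benjamini-Hochberg over 21887 genes). Every gene of this class gets that p by construction, so it adds nothing to the selection. By this test 4825 genes reached that smallest p, 0 genes had an unadjusted p under 0.05, and none of the receptor genes can be called changed.

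Among the retinoid X receptors, the common heterodimer partners, Rxra headed the order of peak strength. Rxra, which encodes the alpha form (chromosome 2, 27676445 to 27763319, plus strand), had no end peak in K49A 1 or 2 and had peaks of 5.76-, 3.82-, 5.05- and 3.52-fold in WT 1 to 4 (4.54 ± 1.05, SD, n = 4). Its peaks covered the listed start in all 4 WT libraries and overlapped the 300 bases printed above. The WT 2 peak began at 27677186 and reached only the 3′ edge of those bases. The mean percentile of the 4 peaks in their own lists, by −log10 q, was 97. The covered length at its ends was 0 and 0 bp in K49A and 450, 260, 452 and 684 bp in WT, a difference of -462 bp (SE 86.8). Because these peaks stand inside the annotated span, the difference was -60.8 bp with a window of 0.5 kb, and Rxra was then not called in all 4 WT libraries, nor when at least 0.5 of a peak had to lie in the window. Rxrb had peaks of 3.30-, 3.39- and 2.84-fold in WT 2, 3 and 4, at a start end it shares with the zinc transporter gene Slc39a7, so those peaks cannot be given to either gene. Rxrg had peaks of 2.90- and 2.82-fold in WT 2 and 3.

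The NR4 receptors are immediate-early orphan receptors induced by growth factors and other stimuli. Nr4a1 (chromosome 15, 101253902 to 101274795, plus strand) had no end peak in K49A and peaks of 4.87-, 3.66-, 3.61- and 4.14-fold in WT 1 to 4 (4.07 ± 0.584, SD, n = 4). These peaks stood at the 5′ end of the annotated gene span, with midpoints at -12636, -12302, -12527 and -12572 bp in WT 1 to 4 relative to the start listed in the promoter table. At that listed start only WT 2 had a peak that covered it, of 2.66-fold, which counts as a body peak here. Nr4a2 (chromosome 2, 57106830 to 57124003, minus strand) had no end peak in K49A and peaks of 3.23-, 3.41-, 3.05- and 3.47-fold in WT 1 to 4 (3.29 ± 0.192, SD, n = 4). They covered its listed start, and the window also belongs to the gene LOC105244150. Nr4a3, the remaining member, had an end peak of 2.22-fold in WT 3 and in no other library.

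Of the 19 NR1 genes, 5 were called at an end in no K49A library and all 4 WT libraries (26.3%, beside 21.8% of all genes). No end peak in any WT library was found at 8, beside 40.2% of all genes. Counts per library were 0 and 0 in K49A and 7, 8, 10 and 11 in WT. In WT that is 36.8%, 42.1%, 52.6% and 57.9%, beside 28.8%, 43%, 46.3% and 49.9% of all genes. Pparg, the adipocyte regulator, had no end peak in K49A and peaks of 3.80-, 2.90-, 3.15- and 4.05-fold in WT 1 to 4 (3.47 ± 0.541, SD, n = 4), and its covered length was 0 and 0 bp in K49A and 361, 1067, 1018 and 530 bp in WT. Rora, a receptor that drives clock genes through RORE elements, had no end peak in K49A and peaks of 3.56-, 2.76-, 2.71- and 3.74-fold in WT (3.19 ± 0.531, SD, n = 4). For both genes WT 1 and 4 had short peaks of high fold and WT 2 and 3 longer peaks of lower fold. The Rora peaks were 347, 1519, 1269 and 401 bp wide in WT 1 to 4. Vdr, the vitamin D receptor, had peaks of 2.93-, 3.05-, 3.45- and 2.97-fold in WT (3.10 ± 0.241, SD, n = 4) that covered its start in all 4 WT libraries, over the CpG-poorer promoter printed above.

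The other NR1 genes called in all 4 WT libraries had weaker peaks by rank. Nr1d2, which encodes the clock repressor REV-ERB beta, had peaks of 3.02-, 2.74-, 3.17- and 2.85-fold in WT, at a mean percentile of 39.6. Its difference in covered length was -756 bp (SE 180), and -167 bp with peaks of −log10 p of at least 5. Rarg, the gamma receptor for retinoic acid, had peaks of 3.12-, 2.70-, 3.64- and 2.49-fold in WT, at a mean percentile of 36.1. Its percentile was 90.2 in WT 3 and between 2.99 and 28.9 in the other WT libraries, so its call in WT 2 lay close to the limit of the list. Ppara, the fatty acid sensor of liver, was called in WT 2, 3 and 4 (2.88-, 3.09- and 3.07-fold), and Ppard in WT 1, 2 and 4 (3.71-, 3.28- and 3.65-fold). The receptors of bile acids, xenobiotics and oxysterols were mostly without end peaks: Nr1h2, Nr1h4, Nr1h5, Nr1i2 and Nr1i3 had none in any library, and Nr1h3 had them in WT 3 and 4 alone, at ends shared with Acp2 and Madd. Of all genes, 40.2% had no end peak in any WT library.

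Of the 12 NR2 genes, 3 were called in no K49A library and all 4 WT libraries (25%, beside 21.8% of all genes). An end peak in at least 1 WT library was found at 11, beside 13090 of all 21887 genes. Counts per library were 0 and 0 in K49A and 4, 7, 10 and 9 in WT. In WT that is 33.3%, 58.3%, 83.3% and 75%, beside 28.8%, 43%, 46.3% and 49.9% of all genes. Nr2c2, the orphan receptor TR4 that is abundant in testis, had no end peak in K49A and peaks of 3.80-, 3.15-, 3.38- and 3.42-fold in WT 1 to 4 (3.44 ± 0.272, SD, n = 4). It had the longest covered length of the 11, with 0 and 0 bp in K49A and 948, 1380, 768 and 1209 bp in WT, a difference of -1076 bp (SE 136). Nr2f1, which encodes the developmental regulator COUP-TF1, had peaks of 2.83-, 2.13-, 2.45- and 2.49-fold in WT (2.48 ± 0.288, SD, n = 4), and its covered length was 0 and 0 bp in K49A and uneven in WT, at 1215, 200, 803 and 1273 bp. Nr2f2 and Nr2e1, further developmental regulators, were called in WT 2, 3 and 4 (2.65-, 2.51- and 3.05-fold for Nr2f2, and 2.21-, 2.22- and 2.28-fold for Nr2e1). For Nr2f2 the WT 2 value was from a peak at its start and those of WT 3 and 4 from peaks at its finish. WT 2 also had a finish peak there, of 2.53-fold. Hnf4a, the hepatocyte and gut regulator, had no peak in any library.

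Among the 8 listed NR3 genes, which encode receptors of estrogens, progesterone, glucocorticoids and mineralocorticoids and the estrogen-related receptors, 0 had an end peak in all 4 WT libraries. Their end peak counts per library were 0 and 0 in K49A and 0, 2, 5 and 3 in WT, which is 0%, 25%, 62.5% and 37.5% in WT 1 to 4 beside 28.8%, 43%, 46.3% and 49.9% of all genes. A body peak in no K49A library and all 4 WT libraries was called at 4 of the 8, beside 5.99% of all genes. These genes are long, with a mean span of 219 kb, and 3 of the 4 were over 100 kb, a length at which 22.8% of all genes were in that class. Esr2, the beta estrogen receptor, was called in WT 2, 3 and 4 (2.96-, 3.26- and 2.74-fold), and Esrra, the alpha estrogen-related receptor, in the same 3 libraries (2.93-, 3.21- and 2.85-fold). The Esrra peaks of WT 2 and 3 were at its finish, shared with Prdx5 and Trmt112, and that of WT 4 at its start, shared with Catsperz. In the NR5, NR6 and NR0 group, 1 of 5 genes was called in no K49A library and all 4 WT libraries (20%, beside 21.8% of all genes). It was Nr6a1, the germ cell nuclear factor (2.87-, 3.01-, 2.64- and 2.92-fold in WT 1 to 4). Its covered length was 0 and 0 bp in K49A and 868, 773, 1019 and 1293 bp in WT. Nr0b1, which encodes DAX1, had a peak in WT 3 alone, at 2.99-fold.

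**Figure D2:**
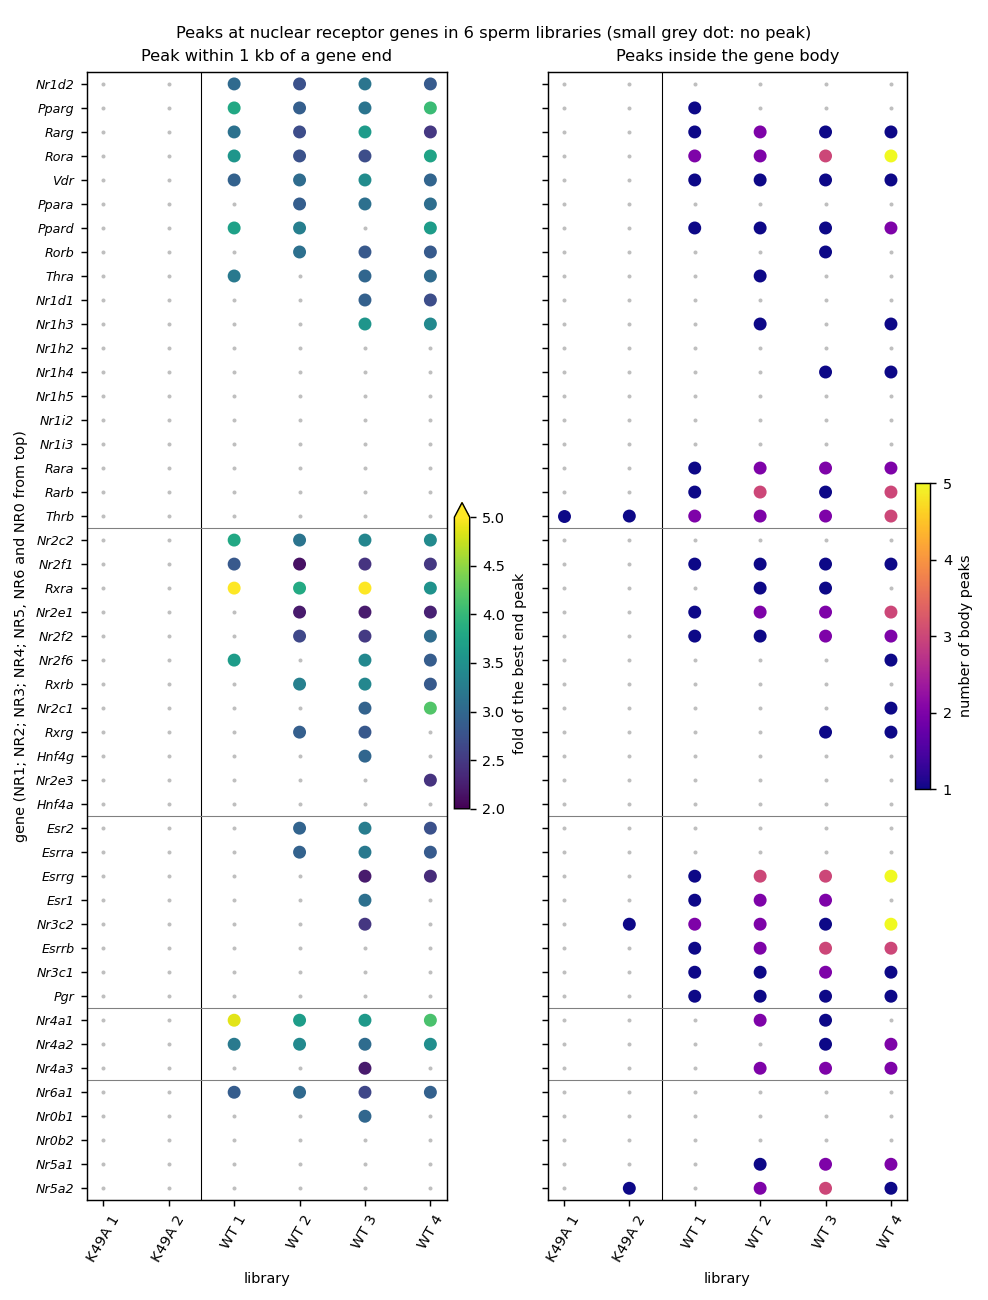
Peaks at each of the 47 receptor genes (rows, grouped by subfamily) in the 6 libraries (columns, K49A left of WT); colour gives the authors' fold of the best end peak by −log10 q (left) and the number of body peaks (right), and a small grey dot means no peak. The left panel is empty in both K49A columns, and the right panel has 4 K49A calls, 2 of them in Thrb.

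Most end peaks lay at the start of the genes and few at their finish, among the receptors as among all genes. For the 43 receptor genes with a strand in the promoter table, a start peak was found at 0 and 0 genes in K49A and at 13, 19, 26 and 24 in WT 1 to 4. A finish peak was found at 0 and 0 genes in K49A and at 0, 2, 4 and 3 in WT. Of all 17492 genes with a strand, 55 and 35 had a start peak in K49A and 4830, 7140, 7707 and 8255 in WT. Their finish peaks were at 23 and 22 genes in K49A and at 343, 702, 799 and 964 in WT. A start peak in no K49A library and all 4 WT libraries was called at 11 of 43 (25.6%), beside 20.9% of the 17492 genes with a strand. A finish peak in all 4 WT libraries was found at 0 receptor genes and at 160 of those 17492. The peaks that reached receptor finishes in any WT library belonged to Esr1, Esrra, Nr1h3, Nr2f2 and Rxrb. In width and fold the end peaks of receptors lay close to those of all genes: their median width was 527, 748, 676 and 538 bp in WT 1 to 4, against 490, 687, 686 and 588 bp for all end peaks, and their median fold was 3.23, 2.93, 2.99 and 2.90, against 3.25, 2.96, 2.99 and 2.97.

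**Figure D3:**
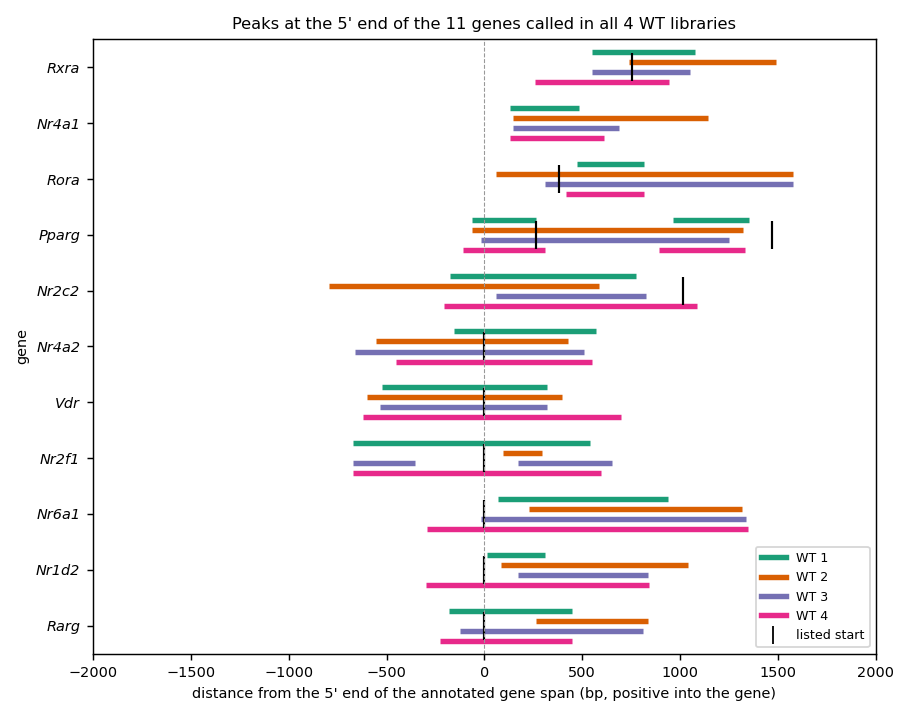
Extent of the WT peaks at the 11 receptor genes called in all 4 WT libraries (rows), as distance in bp from the 5′ end of the annotated gene span (x axis, positive into the gene); bars are peaks coloured by WT library, black ticks are listed starts, and no K49A peak lay in these windows. The peaks of Nr4a2 and Vdr straddle the listed start in all 4 libraries, and those of Rxra cover a listed start inside the span.

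Covered promoters were CpG-rich among the receptors, as among all genes. Over the 64 RefSeq promoter windows of 43 receptor genes, a K49A peak overlapped 0 windows, beside 29 of all 21263. In WT, 9 receptor windows were overlapped in all 4 libraries, 12 in 3, 7 in 2, 5 in 1 and 31 in 0. These were 14.1%, 18.8%, 10.9%, 7.81% and 48.4% of the receptor windows, beside 11.2%, 12.7%, 12%, 13.7% and 50.5% of all windows. The median number of CpG per 300 bases was 22 in the windows covered in all 4 WT libraries, 24 in 3, 20 in 2, 20 in 1 and 6 in 0. For all 21263 windows these medians were 31, 25, 22, 18 and 4. Of the 13 receptor windows with at least 26 CpG, all 13 had a peak in some WT library and 4 had one in all 4, beside 93.4% and 34.2% of all windows in that range. Of the 15 with at most 5 CpG, 1 had a peak in some WT library and 0 in all 4, beside 6.78% and 0.204%. Of the 22 with 6 to 15 CpG, 8 and 3 did (36.4% and 13.6%), beside 40.4% and 3.33%. Of the 14 with 16 to 25 CpG, 11 and 2 did (78.6% and 14.3%), beside 76.4% and 12%.

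**Figure D4:**
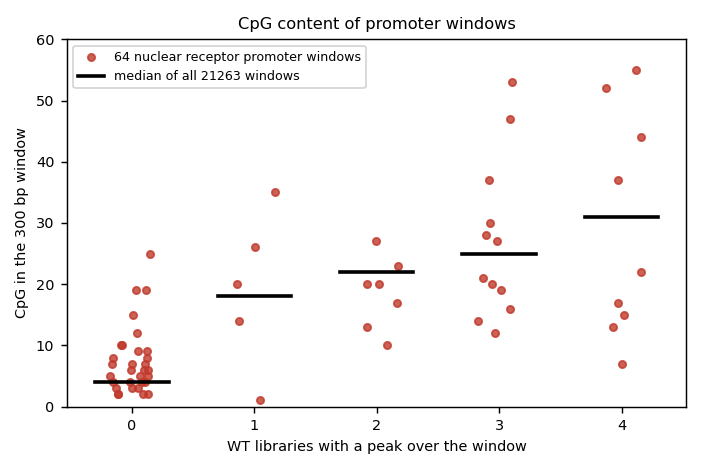
Number of CpG dinucleotides in each 300 bp promoter window (y axis) by the number of WT libraries with a peak over it (x axis); points are the 64 receptor windows and black bars are medians of all 21263 windows. Receptor windows without a WT peak hold at most 25 CpG, and windows overlapped in all 4 WT libraries range between 7 and 55.

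CpG content alone did not separate receptor windows with a peak from those without. Nr1h2, the ubiquitous oxysterol receptor LXR beta, had 19 CpG and a ratio of observed to expected CpG of 0.988 in the window printed above, and no peak in any of the 6 libraries. Among all windows with 16 to 25 CpG, 76.4% had a peak in some WT library, so a window without one was not rare. Esrrb had a window of 7 CpG that was overlapped in all 4 WT libraries, at its 3′ side. The peak midpoints lay 670, 482, 662 and 735 bp past the listed start in WT 1 to 4, outside the window. Its CpG count thus does not describe most of the sequence under those peaks. The hexamer AGGTCA, the classic receptor binding half-site, searched on both strands, was present in 12 of 64 receptor windows (18.8%) and in 14.7% of all windows. The GC-box letters GGGCGG, on both strands, were in 28 receptor windows (43.8%) and in 46.2% of all windows. A match of letters is a description of the window and says nothing about binding.

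The second comparison concerned peaks inside the gene bodies. In K49A sperm 1 and 3 of the 47 receptor genes had a body peak, and in WT sperm 17, 23, 25 and 24. The mean was 2 ± 1.41 genes in K49A (SD, n = 2) and 22.2 ± 3.59 in WT (SD, n = 4), a difference of -20.2 (SE 2.06), and the genotypes did not overlap. Over all genes the share was 0.841% and 1.31% in K49A and 10.8%, 17.8%, 19% and 24.8% in WT, and the share of receptor genes was 2.13% and 6.38% in K49A and 36.2%, 48.9%, 53.2% and 51.1% in WT. A body peak in no K49A library and all 4 WT libraries was called at 13 receptor genes (27.7%), beside 5.99% of all genes. Those 13 were Nr2e1, Nr2f1, Nr2f2, Nr3c1, Pgr, Esrrb, Esrrg, Rara, Rarb, Rarg, Rora, Vdr and Ppard.

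Receptor genes are long, with a median span of 47.1 kb against 17.2 kb for all genes, and a longer body has more room for a peak. Among genes over 100 kb, 5 of 13 receptors (38.5%) were in that class beside 22.8% of all genes, and among genes of at most 100 kb, 8 of 34 (23.5%) beside 3.88%. In narrower ranges of length the receptor counts were 2 of 13 up to 20 kb (1.63% of all genes), 3 of 12 from 20 to 50 kb (5.42%), 3 of 9 from 50 to 100 kb (11.4%), 2 of 6 from 100 to 200 kb (18%) and 3 of 7 above 200 kb (29.9%). The receptor share lay above that of all genes in each range, on counts of 2 or 3 genes each.

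The receptor genes held 1 and 3 body peaks in K49A 1 and 2 and 20, 38, 41 and 50 in WT 1 to 4. Merged where they overlapped, these formed 84 regions, of which 50 were called in 1 WT library alone and 13 in all 4 WT libraries, in 12 genes. The 13 shared regions were 819 to 2489 bp wide with a median of 1406 bp, and regions of 1 WT library had a median of 254 bp. A shared region joins the peaks of several libraries and is wider by construction. Its peaks are joined in a chain, so those of 2 libraries need not overlap each other. In the Nr2f1 region the WT 2 peak overlapped neither the WT 1 nor the WT 4 peak. In the Rarg region the WT 3 and WT 4 peaks did not overlap, nor did those of WT 1 and WT 4 in the Rora region from 69363700. Of the 13, 5 as merged covered a listed transcription start inside the annotated span, in Esrrb, Esrrg, Rara, Rarb and Thrb. Single peaks covered one in all 4 WT libraries in Rarb and Thrb. They did so in WT 1, 2 and 3 in Esrrg, WT 1 and 4 in Esrrb and WT 3 alone in Rara. Over receptor genes with a strand, 4 of 19, 6 of 35, 5 of 37 and 4 of 47 body peaks covered a start in WT 1 to 4. Of all such body peaks, 16.7%, 13.5%, 13.6% and 11.5% did. The widest was in Nr2f2 (chromosome 7, 70358923 to 70361411), the gene of COUP-TF2, with folds of 4.35, 2.52, 2.86 and 2.55 in WT 1 to 4. In Esrrg, the gamma estrogen-related receptor (chromosome 1, 187650956 to 187653101), the mean fold was 3.23 ± 0.173, and in Rarb, the retinoic acid receptor induced by its own ligand (chromosome 14, 16574577 to 16575982), it was 3.15 ± 0.165 (SD, n = 4 WT each). Pgr, the progesterone receptor, had no end peak in any library and a shared body region just inside its start (chromosome 9, 8900227 to 8902282), at 2.80 ± 0.12-fold in WT (SD, n = 4).

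Body peaks were most numerous in Rora and Esrrg, each with 12 summed over the WT libraries, followed by Nr3c2 with 10, Thrb and Esrrb with 9 each, and Nr2e1 and Rarb with 8 each. Rora, with a span of 735 kb, had 0 and 0 body peaks in K49A and 2, 2, 3 and 5 in WT, and 2 shared regions towards its 3′ end (chromosome 9, 69289706 to 69291592 and 69363700 to 69364808). Their mean folds in WT were 2.88 ± 0.0775 and 2.82 ± 0.343 (SD, n = 4). Nr3c2, Vdr and Ppard had body peaks in all 4 WT libraries with no single region called in all 4. Whether these peaks lie in exons or introns was not analysed here.

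In K49A sperm, body peaks were found in Thrb, Nr3c2 and Nr5a2, which is 3 of 47 receptor genes beside 1.78% of all genes with a body peak in any K49A library. These 3 genes are long, with spans of 381, 347 and 118 kb in that order. The 1.78% is over genes of every length, and the share for long genes alone was not analysed in K49A. Thrb, the beta thyroid hormone receptor (chromosome 14, 17659225 to 18040097, plus strand), had 1 body peak in each K49A library and 2, 2, 2 and 3 in WT. Its K49A 1 peak (17661223 to 17661547, 3.39-fold, −log10 q 1.71) lay inside the region that was called in all 4 WT libraries at 2.98-, 3.02-, 2.68- and 3.16-fold (17660348 to 17661575), which covers a listed start. This was the only region of the 84 called in all 4 WT libraries and a K49A library. The K49A 2 peak of Thrb (17663360 to 17663559, 3.11-fold, −log10 q 2.56) overlapped no WT peak. Nr3c2, the mineralocorticoid receptor, had a peak in K49A 2 (chromosome 8, 77146302 to 77146501, 2.92-fold, −log10 q 1.46) that overlapped no WT peak. Nr5a2, the orphan receptor LRH-1, had a K49A 2 peak (chromosome 1, 136952260 to 136952562, 2.66-fold, −log10 q 1.01) in a region that WT 2 and 3 also held. The lists end at a −log10 q of 1.01 to 1.04 in K49A, so the Nr5a2 call stood at the limit.

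No peak at an end or in the body in any library was the state of 6 receptor genes (12.8%), beside 29.8% of all protein-coding genes. The median span was 47.1 kb for receptor genes and 17.2 kb for all genes, and this comparison was not split by length. The 6 were Nr0b2, Nr1h2, Nr1h5, Nr1i2, Nr1i3 and Hnf4a. Of these, Nr0b2 encodes the small heterodimer partner, which lacks a DNA-binding domain, Nr1i2 the pregnane X receptor and Nr1i3 the constitutive androstane receptor.

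The partners of the receptors were described by the same rules. Of 26 coregulators, the coactivators and corepressors that receptors recruit, 10 had an end peak in no K49A library and all 4 WT libraries (38.5%), beside 21.8% of all genes. Coregulator genes are long, with a median span of 87.3 kb, and the share of all genes in that class was 35.5%, 39.3% and 40% in the 3 ranges of length above 50 kb. Counts per library were 0 and 0 in K49A and 14, 16, 20 and 22 in WT, which is 53.8%, 61.5%, 76.9% and 84.6% in WT 1 to 4 beside 28.8%, 43%, 46.3% and 49.9% of all genes. The corepressors Lcor, Ncor1 and Nrip1 and the coactivator Ncoa1 led this list, with mean folds in WT of 4.31 ± 0.148, 3.57 ± 0.4, 3.37 ± 0.42 and 4 ± 0.961 in that order (SD, n = 4 each). Of 26 enzymes and carriers of retinoid, thyroid and steroid ligands, 7 were in that class (26.9%), near the 21.8% of all genes. Counts per library were 0 and 0 in K49A and 8, 13, 12 and 13 in WT, which is 30.8%, 50%, 46.2% and 50% in WT 1 to 4. Dio3, which inactivates thyroid hormone, had a mean of 3.07 ± 0.509, Srd5a2, which makes dihydrotestosterone, 3.16 ± 0.235, and Rdh10, which makes retinal, 2.79 ± 0.187 (SD, n = 4 WT each).

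The counts were repeated with stricter limits and with lists of equal length. With only peaks of −log10 p of at least 5, 0 and 0 receptor genes had an end peak in K49A and 10, 10, 17 and 18 in WT, and 6 genes were called in all 4 WT libraries, namely Nr2c2, Nr4a1, Nr4a2, Rxra, Rora and Pparg, beside 6.93% of all genes. At that limit 0.388% and 0.311% of all genes had an end peak in K49A and 18%, 21.7%, 26.2% and 31.6% in WT. When each list was cut to its 700 strongest peaks by −log10 q, an end peak was left at 0 and 0 receptor genes in K49A and at 2, 0, 1 and 2 in WT, at Nr4a1, Rxra and Rora. Of all genes, 0.429% and 0.233% then had an end peak in K49A and 2.13%, 1.52%, 1.62% and 1.91% in WT, with no overlap between the genotypes. A body peak was then left at 1 and 1 receptor genes in K49A and at 1, 0, 0 and 0 in WT, beside 0.841% and 0.713% of all genes in K49A and 0.567%, 0.662%, 0.603% and 0.594% in WT. At equal list length an end peak in no K49A library and all 4 WT libraries was called at 0 receptor genes, beside 0.0685% of all genes.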

How the data were processed

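MNase-seq peak lists of 6 mouse sperm libraries (2 K49A, 4 WT) were used, grouped by sample title; file names pair K49A 2 with WT 4, whereas titles give it the number of WT 2. Per the submitters' processing notes the tools were MACS2 for peaks and FastQC, BWA, SAMtools and Picard for reads, on mm10; their versions and settings are not stated in what was used here. Each library has its own list. Blacklisted regions were removed, per the file names. For each peak the deposited files give a fold (ratio) over background, a −log10 p and −log10 q, and a score. All are the authors' values, and the lists end at a q of 0.1. A list cannot show signal below that limit. No read counts were used, so depth is unknown and no counting interval is given.

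Gene spans were taken from the RefSeq gene table of GRCm38.p6, and strand and promoter windows from the RefSeq promoter table (43 of 47 receptor genes matched). Nr3c1, Nr5a1, Thra and Hnf4g have no printed window. A peak was at an end with at least 1 bp in the 1 kb window either side, and in the body as defined in the report. Covered base pairs per gene were compared by exact permutation, two-sided, over 15 divisions of the libraries, adjusted by Benjamini-Hochberg over 21887 genes; the smallest possible p is 0.133, so 0.05 could not be reached. Lists of genes were described by counts beside all genes, with no test. Library was the unit of replication. The procedure was tested on simulated data.

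The receptor genes and gene lists were chosen with earlier results of these data known. Genes given in full were those with a K49A peak, the 10 ranked highest by the mean percentile of the best end peak among those called in no K49A library and all 4 WT libraries, the 6 with the most body peaks (7 where tied), and up to 4 per partner list. Other receptor genes are named to account for every member. Alternatives were stricter peak limits, lists cut to 700 peaks, windows of 0.5 and 2 kb, 0.5 of a peak inside the window, shared peaks left out, any overlap with the body, each library left out and a replicate block. Python 3.11.15, numpy 2.4.6, pandas 2.3.3, scipy 1.17.1 and matplotlib 3.10.9 were used.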

Additional observations from a re-analysis of the deposited data

How the results depend on the processing

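The receptor genes with an end peak in no K49A library and all 4 WT libraries numbered 11, and 6 at a −log10 p of at least 5, 6 at a −log10 q of at least 2 and 0 with 700 peaks per list. The shares of all genes in this class were 21.8%, 6.93%, 8.34% and 0.0685% in that order. Leaving out 1 library gave 11 to 18, with 18 without WT 1, and can only keep or raise this count. The share of all genes with 1 library left out was not analysed. The other window, overlap and sharing alternatives gave 10 to 12, beside 17.1% to 24.5% of all genes. The K49A minus WT difference in receptor genes with an end peak was -22.5, and -13.8, -15.2 and -1.25 under the same 3 limits; leaving out 1 library gave -25.3 to -20. For body peaks it was -20.2, and -9 and -14 under the stricter limits, 0.75 with 700 peaks per list, where the direction reversed, and -31 with any overlap with the body, which adds peaks at the ends by construction; leaving out 1 library gave -22 to -19.2. Receptor genes without any peak numbered 6, and 13, 10 and 42 under the 3 limits, with 6 to 8 when 1 library was left out. Of all genes 29.8% had no peak in the full lists, and their share under the limits was not analysed. The limits keep fewer peaks by construction; other causes were not tested.

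With a replicate block over the libraries numbered 1 and 2 in both genotypes, the end difference was -17 and the body difference -18; the exact sign test on 2 pairs cannot go below 0.5. The labels name no animal, batch or day shared by libraries of the same number. With 2 K49A libraries their deviations mirror each other, so correlations of deviations cannot show a pairing, by number or by file name, and the libraries were treated as unpaired. For the 10 genes given in full, the covered length had 140 values under the alternatives: 132 kept the direction, 8 were 0 (7 of them with 700 peaks per list, and Nr4a2 with shared peaks left out) and 0 were reversed. These genes were chosen without an end peak in K49A, so only the window of 2 kb could have reversed the direction. The absence of reversals is therefore no evidence of stability. The size moved more: for Rxra it was -60.8 bp with a window of 0.5 kb and -396 bp with at least 0.5 of the peak inside, against -462 bp, and for Nr1d2 -167 bp at a −log10 p of at least 5, against -756 bp.

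Without read counts, an absent peak means no call at the limit of that list. It does not show that nucleosomes were absent. Depth is unknown, so its part in the list lengths was not tested.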
